A study of Mus musculus with 2 samples.

Results

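The forkhead (Fox) family is a set of transcription factors that share a winged-helix DNA-binding domain and are sorted into subfamilies by a letter. On the arrays used here, 37 genes carried a name made of Fox, a letter from a to s and a number, alone or as part of a hyphenated name shared by a divergent gene pair, each with at least 3 probes. In Foxf1a and Foxo3a a further letter follows the number. They were 37 of 16906 genes with at least 3 probes, and together they held 1381 probes, between 17 and 55 per gene (median 38), over a median of 7761 bp around the gene start. The letters found ran from a to q.

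The study used ChIP-chip to map where Ring1B sits at promoters in ES (embryonic stem) cells of the mouse. DNA immunoprecipitated with a monoclonal anti-Ring1B antibody was labelled with Cy5, input DNA, which had not met the antibody, was labelled with Cy3, and both were hybridised together to promoter tiling arrays. The promoter set was spread over 2 arrays with 0 probes in common, so that every promoter of the set was measured once, with the same dye orientation, no mock precipitation and no replicate. The source names begin with Muscle although the titles name ES cells, and since both channels hold DNA, the cell type could not be checked against expressed markers. The labels give no ES cell line, strain, genotype or treatment. Slide 1 carried 19 of the Fox genes with 706 probes and slide 2 carried 18 with 675 probes. The slides gave 237054 and 237168 usable probes, with immunoprecipitated signal well above background at 77.2% and 80.6% and input signal well above background at 74.1% and 76.3%.

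Ring1B is the ubiquitin ligase of Polycomb repressive complex 1, which marks histone H2A and keeps developmental genes silent. In ES cells Polycomb complexes are known to sit at CpG-rich promoters of transcription factors that later direct the germ layers. Forkhead proteins include such lineage factors, for example the Foxa proteins of the endoderm, but also factors that many cell types use, such as the Foxo proteins of insulin signalling and the mitotic factor Foxm1.

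Each probe's value is the log2 of its immunoprecipitated over its input signal, less the slide's median probe, so that 0 is the median probe and 1 is 2-fold above it. Probe values were averaged per gene and are given with their SD. That SD describes variation along the promoter and not error between experiments. Without a second array per promoter nothing could be tested, and the precision of each value is limited by the small number of arrays. As the only spread at hand, each gene's probes were numbered along the chromosome and the odd-numbered and even-numbered ones averaged apart. These 2 means differed by a median of 0.18 over the 37 genes and by at most 0.81 (Foxd4), and the genes kept much the same order in both (Pearson 0.93, Spearman 0.93, over 37 genes that share 2 arrays, a description only). The 2 sets alternate along the same promoter, on the same array and from the same precipitation. They are not separate measurements, so their likeness does not show how well a repeat would match.

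Probe sequences show what was measured at the extremes. The probe with the highest running mean is given for the 3 Fox genes with the highest values, Foxa1 (chr12:55485878-55485937), Foxf1a (chr8:119715684-119715738) and Foxb2 (chr19:16573751-16573795). The probe with the lowest running mean is given for the 2 of the 37 genes with the lowest values, Foxk1 (chr5:141380873-141380923) and Foxi2 (chr7:131810513-131810558). Letters are as in the array files, 5′ to 3′, with CG dinucleotides in capitals, and the positions are those of the array annotation, on a genome build that the sources used here do not name.
Foxa1: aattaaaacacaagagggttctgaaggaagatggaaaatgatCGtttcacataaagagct
Foxf1a: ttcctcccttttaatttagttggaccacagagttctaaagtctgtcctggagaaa
Foxb2: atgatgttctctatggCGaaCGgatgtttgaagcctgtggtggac
Foxk1: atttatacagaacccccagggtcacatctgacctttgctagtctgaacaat
Foxi2: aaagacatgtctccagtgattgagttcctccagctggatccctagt
The Foxa1 probe had a signal of 3793 in immunoprecipitated DNA and 489 in input DNA, a centred ratio of 2.79. The Foxf1a probe read 8178 in immunoprecipitated DNA and 2067 in input DNA, a ratio of 1.75, within a running mean of 2.64. The Foxb2 probe read 8491 in immunoprecipitated DNA and 976 in input DNA, a ratio of 2.96. At the low end the Foxk1 probe read 508 in immunoprecipitated DNA and 566 in input DNA, a ratio of -0.39, although the probes around it brought the running mean to -1.82. The Foxi2 probe read 270 in immunoprecipitated DNA and 694 in input DNA, a ratio of -1.59.

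Promoter windows from RefSeq (assembly GRCm38.p6), 250 bases before to 50 bases after the start, are given on the gene's strand, 5′ to 3′, with CG in capitals. They are those of the highest of the 37 genes, Foxa1 (chr12:57546062-57546361, minus strand), and of the lowest, Foxi2 (chr7:135410117-135410416, plus strand). The window of Foxd1 (chr13:98353995-98354294, plus strand) was added after its values were seen, because both of its probes had high ratios.
Foxa1: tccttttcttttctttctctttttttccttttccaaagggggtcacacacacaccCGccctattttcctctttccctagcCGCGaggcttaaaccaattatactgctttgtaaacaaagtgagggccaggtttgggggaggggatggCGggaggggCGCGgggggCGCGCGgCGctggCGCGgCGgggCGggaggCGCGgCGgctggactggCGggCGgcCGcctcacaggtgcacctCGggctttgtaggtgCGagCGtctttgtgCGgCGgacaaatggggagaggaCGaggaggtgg
Foxd1: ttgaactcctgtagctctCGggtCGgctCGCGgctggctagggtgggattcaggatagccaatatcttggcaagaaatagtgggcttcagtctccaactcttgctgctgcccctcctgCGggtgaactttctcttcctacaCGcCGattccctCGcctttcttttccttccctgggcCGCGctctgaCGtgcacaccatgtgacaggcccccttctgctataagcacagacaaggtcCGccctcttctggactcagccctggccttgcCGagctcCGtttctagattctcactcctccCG
Foxi2: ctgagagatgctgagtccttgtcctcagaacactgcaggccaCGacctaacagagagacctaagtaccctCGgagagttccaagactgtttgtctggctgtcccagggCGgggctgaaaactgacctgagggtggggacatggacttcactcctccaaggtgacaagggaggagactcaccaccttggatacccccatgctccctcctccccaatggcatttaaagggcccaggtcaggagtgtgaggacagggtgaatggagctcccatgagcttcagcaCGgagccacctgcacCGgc
The Foxa1 window held 26 CG, the Foxd1 window 15 and the Foxi2 window 5. In the Foxd1 window the probe at bases 47 to 99 had a ratio of 2.45 and the probe at bases 212 to 256 one of 2.36. In the Foxi2 window the ratios were -1.81 at bases 44 to 91 and -1.08 at bases 148 to 192. The Foxa1 window, at the gene with the highest mean, held 1 high probe, 1.31 at bases 61 to 119, and 1 near the median probe of the slide, -0.07 at bases 224 to 268 over the start itself.

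Ring1B ratios were high at 12 of the forkhead genes, among them members of the Foxa, Foxb, Foxd and Foxf subfamilies, which act in early organ formation. Of the 37 Fox genes, 12 (32.4%) had a mean of at least 1, beside 337 of all genes (1.99%). None of the Fox genes lay at -1 or below (0 of 37), beside 313 of all genes (1.85%), and with so small a share 0 of 37 says little. The Fox median was 0.38, with a range of -0.64 to 1.80, beside a median of -0.10 over all genes. Of single probes, 40.1% of those at Fox genes stood at or above 1, beside 19.7% of all probes. At or below -1 stood 14.2% of the Fox probes, beside 20.6% of all probes. The share was larger on slide 2, with 8 of 18 Fox genes at or above 1 (198 of 8394 genes only there, 2.36%), than on slide 1, with 4 of 19 (139 of 8492 genes only there, 1.64%). As no Fox gene was on both slides, slide and gene cannot be told apart in that difference.

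**Figure D1:**
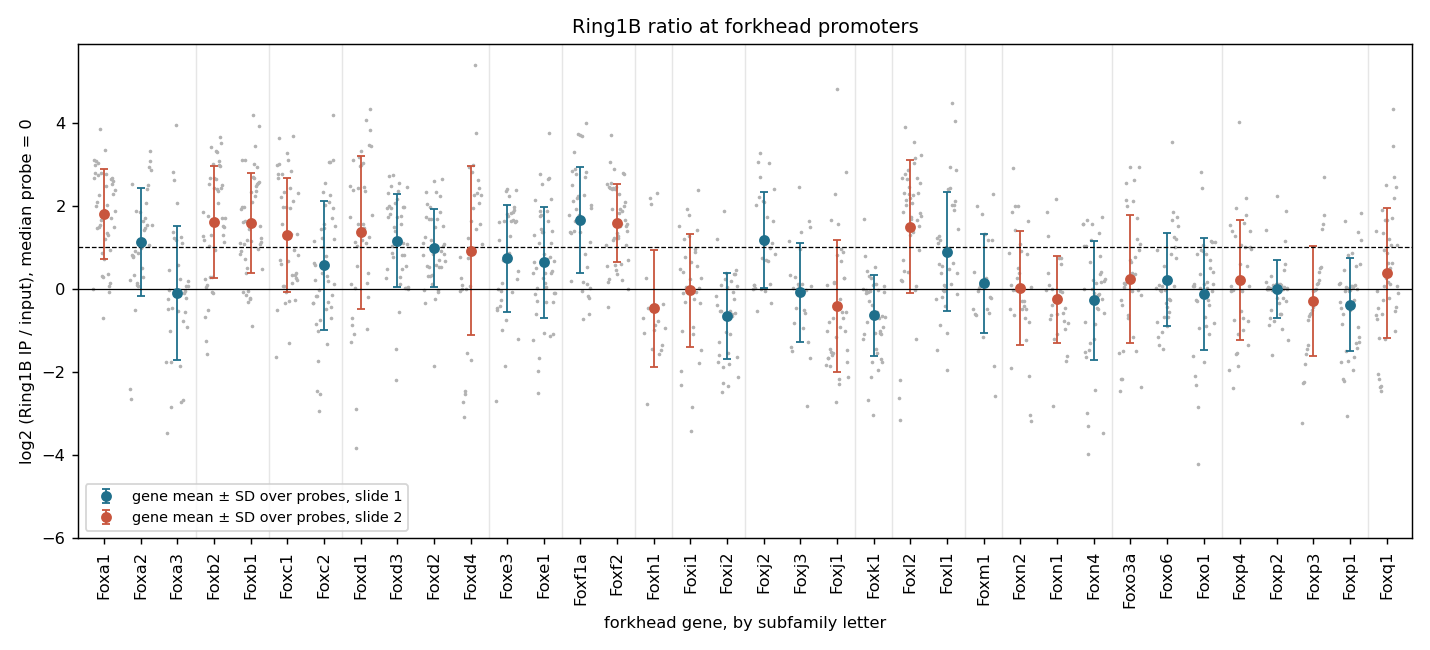
Centred log2 ratio of immunoprecipitated over input DNA (vertical axis) at 36 of the 37 forkhead genes, in order of subfamily letter; small grey points are probes, large points with bars are the gene mean ± SD over its probes, coloured by slide. The dashed line marks 1: all means of the letters b and f lie above it, and those of e, h, i, k, m, n, o, p and q lie below it.

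Subfamilies differed. The median over the genes of a letter was 1.63 for Foxf (both genes at or above 1), 1.59 for Foxb (both), 1.20 for Foxl (1 of 2), 1.13 for Foxa (2 of 3) and 1.08 for Foxd (2 of 4). Foxc followed with 0.93 (1 of 2) and Foxe with 0.69 (0 of 2). Foxq1, alone in its letter, had 0.38, Foxo a median of 0.22 (0 of 3) and Foxm1 0.14. The lowest were Foxj at -0.07 (1 of 3), Foxp at -0.15 (0 of 4), Foxn at -0.25 (0 of 3), Foxi at -0.34 (0 of 2), Foxh1 at -0.46 and Foxk1 at -0.63. Letters a to g, a split made after the values were seen, held 16 genes with a median of 1.15 and 10 at or above 1. Letters h to q held 21 genes with a median of -0.03 and 2 at or above 1, Foxl2 and Foxj2. The same order stood on each slide, but the values of both slides were known when the split was made, so this is no repeat. On slide 1 the medians were 0.86 for 8 genes of letters a to g and -0.07 for 11 of letters h to q, and on slide 2 they were 1.47 for 8 and -0.00281 for 10. Neighbours in the order of the 37 means cannot be ranked: the gap from one to the next had a median of 0.05 and a maximum of 0.19, and 1 of the 36 gaps, between Foxc2 and Foxq1, was wider than the median difference of 0.18 between odd-numbered and even-numbered probes. Both of these probe sets, which are not separate measurements, put the mean at or above 1 at 11 genes, and at least one of them did at 14.

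The Foxa proteins open chromatin in endoderm and liver. Foxa1 (chr12:55478813-55486653) had the highest mean of the family. Its geometric mean signal over 44 probes was 2529 in immunoprecipitated DNA and 649 in input DNA, and its centred ratio was 1.80 ± 1.09, or 3.48-fold. Of its probes, 33 reached 1 and 0 lay at or below -1, and it stood at rank 44 of the 16906 genes. Foxa2 (chr2:147785520-147793299), which is needed for the node and the gut endoderm, read 1210 in immunoprecipitated DNA and 472 in input DNA over 36 probes, a ratio of 1.13 ± 1.30. Its ratio lay inside the gene more than upstream, 2.28 over 11 probes against 0.62 over 25. Foxa3, which acts in liver and gut, stood apart from its paralogues at -0.09 ± 1.61 over 36 probes, with 787 in immunoprecipitated DNA and 716 in input DNA. Its probes ranged from -3.46 to 3.94, and 1 run of 1506 bp upstream had a mean of 1.59.

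Among the genes of neural tissue and neural crest, Foxb1 (chr9:69790016-69798495), a factor of the diencephalon, read 3759 in immunoprecipitated DNA and 1121 in input DNA, a ratio of 1.58 ± 1.20 over 46 probes. Foxb2 (chr19:16572204-16580184) read 4352 in immunoprecipitated DNA and 1279 in input DNA, 1.61 ± 1.35 over 44 probes. The 2 Foxb genes thus had nearly equal means while sitting on different chromosomes.

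The 4 Foxd genes lay between 0.92 and 1.36. Foxd1 (chr13:95418681-95426576), of the kidney stroma, read 1255 in immunoprecipitated DNA and 437 in input DNA over 41 probes, a ratio of 1.36 ± 1.85. Its probes spread widely, from -3.84 to 4.33. Foxd3 (chr4:99043612-99051284), known both from neural crest and as a gene that ES cells themselves express, read 1568 in immunoprecipitated DNA and 596 in input DNA, a ratio of 1.17 ± 1.11 over 42 probes. It had the highest CG content of the family, 1.98 CG per probe. Foxd2 had a mean of 0.99 ± 0.93 over 40 probes and so fell just short of 1, and Foxd4 one of 0.92 ± 2.04 over 31 probes. Foxd4 was split: 14 probes inside the gene averaged 2.496 and 17 upstream averaged -0.37. The single highest Fox probe, 5.39, lay inside Foxd4, with 49997 in immunoprecipitated DNA and 1067 in input DNA.

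Several Fox genes of mesoderm and gut mesenchyme lie close together on 2 chromosomes. On chromosome 8 Foxf1a (the present Foxf1, of lateral plate mesoderm and lung vessels), Foxc2 (of lymphatic vessels) and Foxl1 (of gut mesenchyme) lay within 51.0 kb. Foxf1a (chr8:119712381-119720141) read 4110 in immunoprecipitated DNA and 1104 in input DNA, 1.67 ± 1.28 over 39 probes, with 0 probes at or below -1. Foxl1 (chr8:119755812-119763417) read 1818 in immunoprecipitated DNA and 830 in input DNA, 0.90 ± 1.43 over 36 probes. Its 12 probes inside the gene averaged 1.83 and its 24 upstream averaged 0.44. Foxc2 (chr8:119741520-119752027) read 1504 in immunoprecipitated DNA and 866 in input DNA, 0.57 ± 1.54 over 47 probes. Of these, 33 carried a name shared with the divergent gene Mthfsd and averaged 0.11 ± 1.34, whereas the 14 under its own name averaged 1.64 ± 1.49. Mthfsd, which lies between Foxf1a and Foxc2, had a mean of -0.06 ± 1.502 over 45 probes, and its own 12 averaged -0.53 ± 1.87. Upstream of Foxc2, within the probes shared with Mthfsd, a run of 1162 bp nevertheless had a mean of 1.62.

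On chromosome 13, Foxq1, Foxf2 and Foxc1 lay within 257 kb. Foxf2 (chr13:30986046-30993681), of palate and gut mesenchyme, read 3169 in immunoprecipitated DNA and 943 in input DNA, 1.59 ± 0.95 over 44 probes, and 33 of these reached 1. Foxc1 (chr13:31166821-31174880), of vessels and the anterior eye, read 2683 in immunoprecipitated DNA and 975 in input DNA, 1.30 ± 1.38 over 42 probes. Foxq1 (chr13:30918373-30926379), of the hair shaft, read 716 in immunoprecipitated DNA and 493 in input DNA, 0.38 ± 1.57 over 43 probes. Its mean was again made of a high part inside the gene, 1.26 over 14 probes, and a part near the slide median upstream, -0.05 over 29. On chromosome 4, Foxd2 and Foxe3 lay 9350 bp apart within 25.0 kb, at 0.99 and 0.74.

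**Figure D2:**
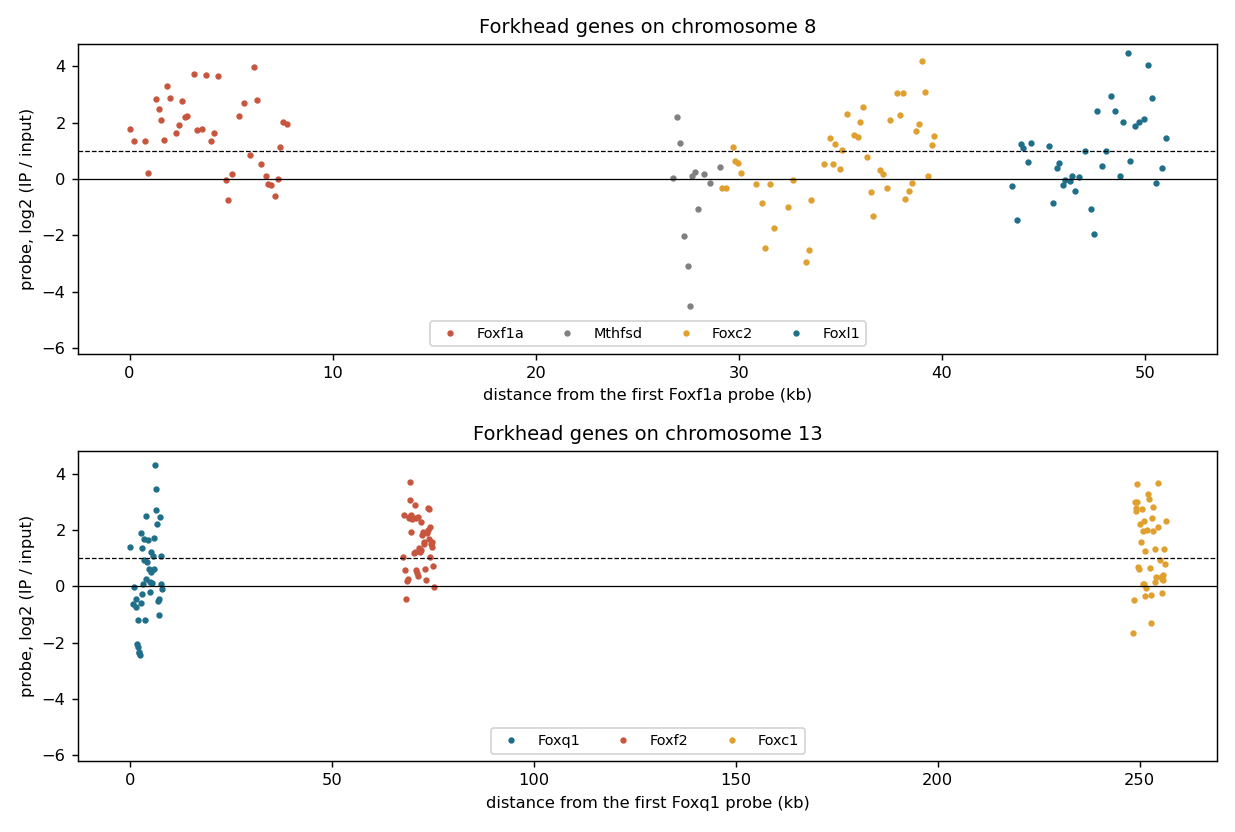
Centred log2 ratio of single probes (vertical axis) against distance in kb from the first probe of the group (horizontal axis) for the Fox genes of chromosome 8, with Mthfsd in grey, and of chromosome 13; Foxc2 in the upper panel includes the probes it shares with Mthfsd. Most probes of Foxf1a and Foxf2 lie above the dashed line at 1, and most of the 12 probes named for Mthfsd alone lie below it.

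Foxl2, which keeps granulosa cells of the ovary in their identity, was the highest gene of letters h to q. It read 3284 in immunoprecipitated DNA and 1037 in input DNA at chr9:98592055-98599734, 1.502 ± 1.60 over 41 probes. Foxj2 was the other such gene, with 570 in immunoprecipitated DNA and 215 in input DNA and a ratio of 1.18 ± 1.15 over 27 probes. Its signals were the dimmest of the 12 genes at or above 1, 5 of its probes were at floor values in both channels, and it fell just under 1 (0.98) by the median of its probes. Foxe1, of the thyroid, and Foxe3, of the lens, lay at 0.65 ± 1.34 over 47 probes and 0.74 ± 1.29 over 36.

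The remaining genes had means between -0.64 and 0.24. Foxh1, the Smad partner of Nodal signalling, read 946 in immunoprecipitated DNA and 1168 in input DNA, -0.46 ± 1.41 over 17 probes, the fewest of any Fox gene. Of these, 9 carried a name shared with a neighbouring gene, and the 8 inside Foxh1 averaged -0.62. Foxj1, the master gene of motile cilia, read 1054 in immunoprecipitated DNA and 1258 in input DNA, -0.42 ± 1.59 over 38 probes. It held 17 probes at or below -1 and yet also a single probe of 4.81. Foxj3 had a mean of -0.07 over 25 probes, of which 5 carried a shared name. Foxi1, of ionocytes in inner ear and kidney, had -0.03.

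By the mean of all their probes, the 2 lowest of the 37 genes that met the naming rule were Foxi2 and Foxk1. Foxi2 (chr7:131809674-131817756) read 524 in immunoprecipitated DNA and 697 in input DNA, -0.64 ± 1.03 over 35 probes. Foxk1 (chr5:141373949-141439644), a factor of muscle progenitor cells, read 451 in immunoprecipitated DNA and 596 in input DNA, -0.63 ± 0.97 over 40 probes. The Foxk1 probes lay in 2 blocks. The 22 around the start had a mean of -0.42. The other 18 lay 57109 to 60419 bp inside the gene, far from the start, and had a mean of -0.89. The low place of Foxk1 depends on them. The block around the start alone lay between Foxj1 (-0.42) and Foxh1 (-0.46).

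Foxm1, which drives genes of mitosis, read 432 in immunoprecipitated DNA and 336 in input DNA, 0.14 ± 1.20 over 23 probes, of which 1 lay upstream. The Foxo factors, which insulin signalling keeps out of the nucleus, lay at 0.24 ± 1.54 for Foxo3a (the present Foxo3, 35 probes), 0.22 for Foxo6 and -0.12 ± 1.36 for Foxo1 (38 probes). Foxo3a read 986 in immunoprecipitated DNA and 744 in input DNA, and Foxo1 read 460 in immunoprecipitated DNA and 426 in input DNA. Foxo6 again differed between its sides, with 1.27 over 12 probes inside and -0.40 over 20 upstream.

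Foxn1, the gene of the nude mouse that thymic epithelium needs, read 640 in immunoprecipitated DNA and 681 in input DNA, -0.25 ± 1.05 over 28 probes. Foxn4, of retina progenitors, had -0.28 and Foxn2 0.03. Of the Foxp genes, Foxp4 had 0.21 and Foxp2, known for its part in vocal learning, 0.00 ± 0.69 over 45 probes, of which 23 were at floor values in both channels, which hold no measured ratio. Foxp1 read 262 in immunoprecipitated DNA and 291 in input DNA, -0.38 ± 1.12 over 40 probes. These cover a single stretch of 7551 bp with 0.40 CG per probe. RefSeq gives Foxp1 promoter windows with 13, 5 and 44 CG, and array probes matched inside none of them. The value therefore does not speak for each Foxp1 promoter. Foxp3, the defining factor of regulatory T cells, read 286 in immunoprecipitated DNA and 315 in input DNA, -0.30 ± 1.33 over 27 probes, and each of these is shared with the neighbouring gene Ppp1r3f.

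Long stretches of high ratio set letters a to g apart from letters h to q as well. A run was taken as at least 3 probes whose average with all probes up to 500 bp away was at least 1, with gaps under 1000 bp, and it was called long from 2000 bp. Long runs touched 16 of the 37 Fox genes (43.2%), beside 520 of all genes (3.08%). With the sign turned, 0 of the 37 did, beside 186 of all genes (1.1%), and here too a count of 0 says little. Letters a to g had a long run at 13 of 16 genes, all but Foxa3, Foxd2 and Foxe1, and letters h to q at 3 of 21, Foxj2, Foxl1 and Foxl2. These runs draw on the same probes as the gene means.

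The longest run lay at Foxl2 and spanned 4993 bp (chr9:98593055-98598047) with a mean of 1.94. Foxb2 followed with 4596 bp (mean 2.18), Foxa2 with 4437 bp (1.75) and Foxf2 with 4137 bp (1.83). Foxb1 had 2 long runs, of 3794 bp and 2136 bp. Foxf1a held one of 3528 bp with a mean of 2.30, and Foxa1 one of 3095 bp with a mean of 2.22. At Foxd4, Foxe3, Foxl1 and Foxc2 long runs of 2765, 2451, 2809 and 2376 bp stood at genes whose mean was below 1. Foxj2, Foxd1, Foxd3 and Foxc1 held runs between 2270 and 2983 bp. Foxe1 and Foxq1 had short but high runs, 930 bp at 2.52 and 875 bp at 2.502. The longest run of low ratio at a Fox gene was 1849 bp at Foxo3a, with a mean of -1.499.

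**Figure D3:**
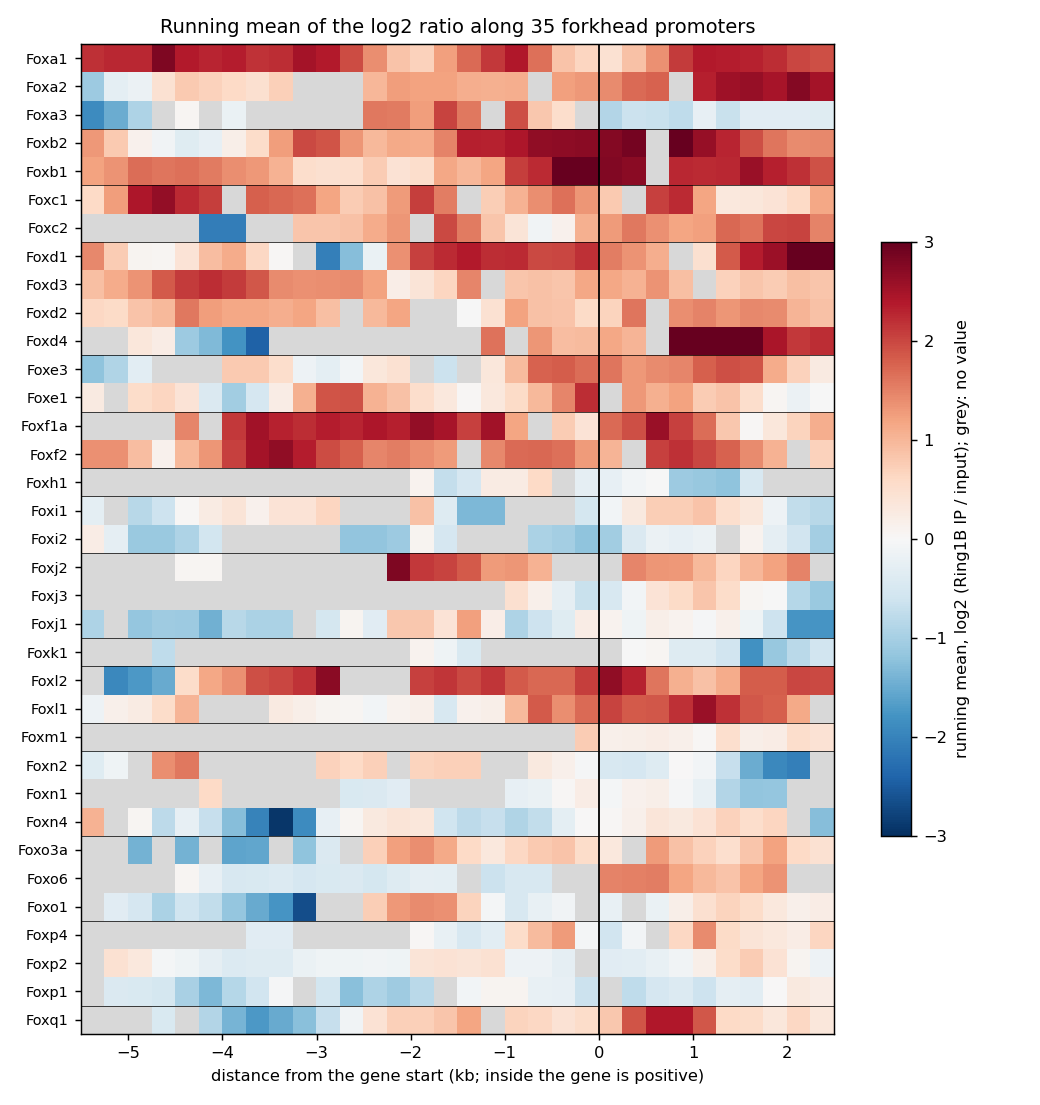
Running mean of the log2 ratio (colour, red above and blue below the slide's median probe) in steps along the promoter, by distance from the gene start in kb (horizontal axis, inside the gene positive), for 35 of the 36 forkhead genes with a start; grey cells have no value. Red runs across most of the width at Foxa1, Foxb1, Foxb2 and Foxf2 and mainly inside the gene at Foxd4 and Foxo6.

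Position relative to the start was known for 36 genes, all but Foxp3. Averaged over genes, letters a to g were highest between 1000 and 500 bp upstream, at 1.71 ± 1.10 (SD over 16 genes), where letters h to q had 0.36 ± 1.18 (18 genes). From there to 2000 bp inside the gene, the bins of letters a to g lay between 1.27 and 1.71. Their SDs over genes were at least 1.02, so no peak can be told apart. Starts are also inexact: the Foxj2 probe placed at -652 bp lay at -101 to -57 bp from the RefSeq start. In the first 500 bp inside the gene the means were 1.59 for letters a to g and 0.23 for letters h to q. In the bin farthest upstream, -5500 to -5000 bp from the start, they were 0.53 and -0.37 over 14 genes each. The probe mean inside the gene was above the one upstream at 24 of 36 genes, among them 9 of 16 of letters a to g and 15 of 20 of letters h to q. Foxm1 counts among these with 1 probe upstream. No such count was made over all genes, so it cannot be called particular to Fox genes.

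**Figure D4:**
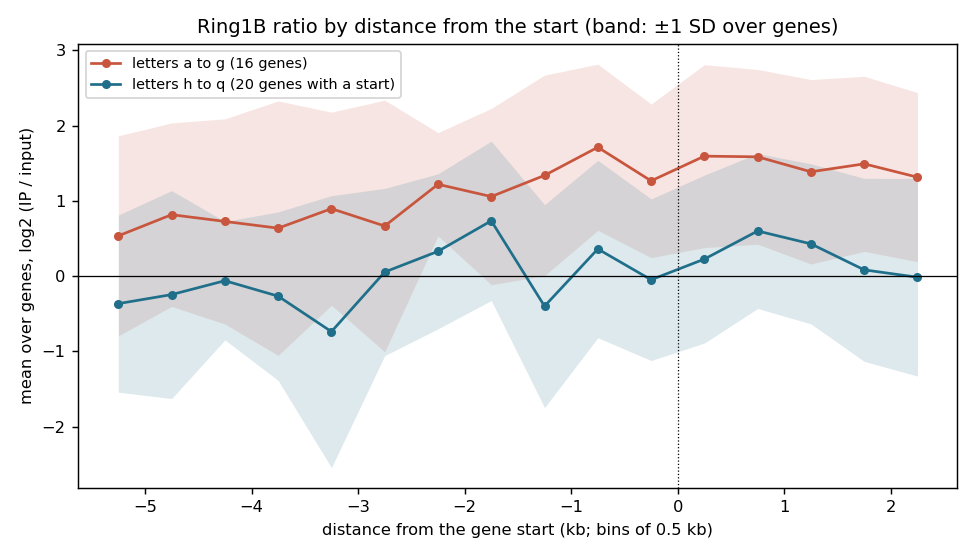
Mean log2 ratio over genes (vertical axis) in bins of 0.5 kb by distance from the gene start (horizontal axis) for letters a to g (red, 16 genes) and letters h to q (blue, 20 genes with a start); bands are ± 1 SD over genes. The red line lies above the blue one in every bin, and the bands overlap.

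The genes with high ratios were also those with more CG dinucleotides in their probes. Genes at or above 1 had a median of 1.37 CG per probe, the other Fox genes 1.00 and all genes 0.68. Across the 37 genes, CG per probe and the mean ratio had a Pearson r of 0.55 and a Spearman rho of 0.57. The GC percentage of the probes gave 0.14 and 0.07, and the input signal 0.24 and 0.21. These are descriptions over genes that share 2 arrays and differ in signal and base composition. CG content alone did not order the genes: Foxo3a, Foxp4, Foxj3 and Foxn2 had 1.89, 1.66, 1.56 and 1.48 CG per probe at means of 0.24, 0.21, -0.07 and 0.03. By probe, the mean ratio at Fox genes was 0.31 with no CG, 0.60 with 1, 1.03 with 2 and 0.98 with 3 or more. Over all probes the same classes had -0.17, -0.04, 0.14 and 0.32. The part of CG content in the difference between the letters was not tested.

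**Figure D5:**
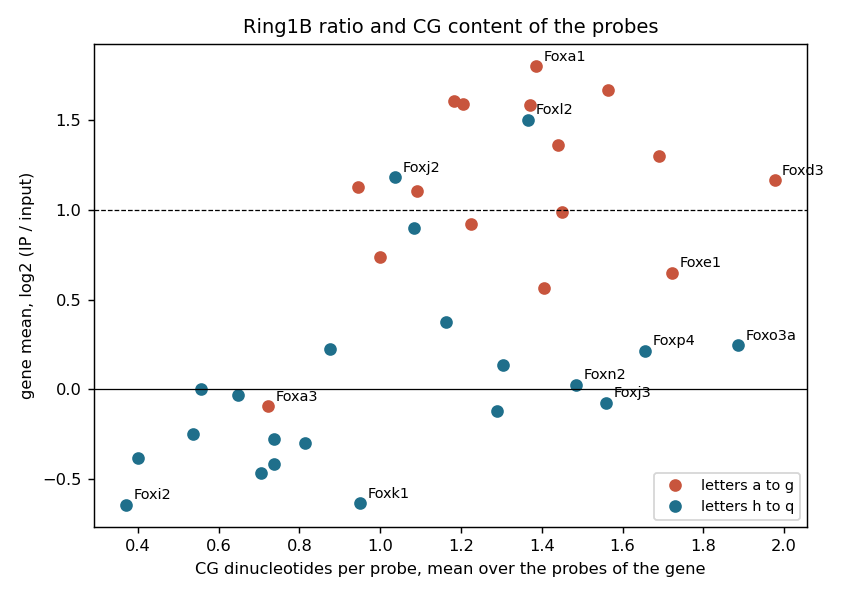
Mean log2 ratio of each of the 37 forkhead genes (vertical axis) against the mean number of CG dinucleotides per probe (horizontal axis), coloured by range of letters. Genes above the dashed line at 1 have between 0.94 and 1.98 CG per probe, and Foxo3a, Foxp4, Foxj3 and Foxn2 combine a high CG content with a mean near 0.

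RefSeq promoter windows were found for 23 of the Fox genes, 28 windows in all. They held a median of 22 CG, beside 7 over all 32851 windows, and 22 of the 28 (78.6%) held at least 10, beside 43.5% of all. Windows of the genes at or above 1 had a median of 25 CG and those of the others 13. Array probes matched inside the windows of 19 genes. At genes at or above 1 these 13 probes had a median ratio of 1.43 (range -0.07 to 2.45), and 10 of them reached 1. At the other genes the 16 probes had a median of -0.50 (range -1.81 to 2.81), and 2 reached 1, at Foxd4 and Foxe3. These probes are part of the gene means that set the groups. The difference between the groups was thus partly built in and is only a description. The forkhead motif TGTTTAC, searched on both strands, was found in 1 of the 28 windows (3.57%), that of Foxa1, beside 3.65% of all windows.

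The Fox genes at or above 1 were short. The gene length in RefSeq had a median of 3.88 kb for them and 12.9 kb for the other Fox genes. Under 10 kb were 11 of 12 genes at or above 1, the exception being Foxj2 with 25.2 kb, and 11 of 25 below. By letter, 15 of 16 genes of a to g and 7 of 21 of h to q were under 10 kb, with medians of 2.98 kb and 20.3 kb. Length and mean ratio had a Spearman rho of -0.51 over 37 genes, again a description.

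The genes next to the Fox genes on the array, at a median distance of 121 kb, were near the background of all genes. Of 65 flanking genes of other families, 1 had a mean of at least 1, beside 1.99% of all genes, and their median was -0.09, beside -0.10 over all genes. This was Pax1, at 1.59 and 677152 bp from Foxa2. Within 20 kb of a Fox gene at or above 1 lay 2 other genes, too few to say how far the signal reaches, of which 0 reached 1. Mthfsd, 18963 bp from Foxf1a, was one of them.

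Partners and targets of the Fox proteins were taken as lists, to be read beside the 1.99% of all genes at or above 1. Of the endoderm partners and targets of Foxa, 6 of 14 had a mean of at least 1 and the list median was 0.69. The highest were the endoderm factor Gata6 (1.93 ± 1.21) and the liver and lymphatic factor Prox1 (1.57 ± 1.40), and the lowest was the hepatocyte factor Hnf4a (-0.52 ± 1.55). The Nodal pathway partners of Foxh1 had 2 of 14 at or above 1 and a median of 0.05. Among them was the transcription factor gene Gsc (1.58 ± 1.29), and the lowest was the Nodal co-receptor gene Cfc1 (-0.74 ± 1.51).

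In the other lists few or none reached 1. None of 12 measured FoxO regulators did (median -0.15), from Irs1 (0.80) down to the insulin receptor gene Insr (-0.61). FoxO targets had 0 of 14 and a median of 0.05, with Cdkn1a (0.44) and Bcl2l11 (0.42) highest and Pck1 (-0.47) lowest. Of the Foxj1 ciliogenesis genes 0 of 11 measured did (median -0.08). Tekt1 (0.63) and Dnahc11 (0.58) were the highest of these and Dnahc5 (-0.54) the lowest. The Foxm1 cell cycle targets had 0 of 13 measured and a median of 0.04, between Skp2 (0.62) and Cenpb (0.39) at the top and Ccnb1 (-0.77) at the bottom. Thymic and regulatory T cell targets of Foxn1 and Foxp3 had 1 of 10 measured at or above 1, the Notch ligand gene Dll4 (1.54), followed by Cxcl12 (0.59), and the lowest was Ccl25 (-0.77). With lists this short and 1.99% of all genes called, a count of 0 says little.

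Set beside other families of developmental transcription factors, 12 of 37 Fox genes reached 1 with a median of 0.38, 3 of 16 Sox genes did with a median of 0.40, and 7 of 16 T-box genes did with one of 0.60. Of the 9 Pax genes 6 reached 1, and their median was 1.43. None of these differences was tested.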

How the data were processed

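The values start from Agilent Feature Extraction files (version 9.1.3.1, per the file headers), 1 per slide. The processed signals are fluorescence intensity values that the authors' software corrected for background and dye, per the file headers, with dim spots set to a floor value. The deposited log10 ratio and series table were used only for comparison: the deposited table holds log2 ratios of mean signals (largest difference from the array files 5.0e-05), with medians of 0.774 and 0.798. Control spots and the 141 and 17 outlier probes of slides 1 and 2 were left out. Log2 ratios of processed signal, Cy5 over Cy3, were centred on the median probe, 0.23 and 0.16 before centring, with no loess or quantile step. Floor values filled both channels at 18.2% and 15.5% of all probes and at 6.81% of Fox probes.

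The design foresaw limma if the arrays shared probes. They shared 0, so results are described by counts and medians. On slide 2, where distances to the start are not given, the start was set between promoter probes and probes inside the gene. Of 44 RefSeq Fox genes, 37 met the naming rule, 3 were found under older names, and Foxi3, Foxk2, Foxr1 and Foxr2 were not analysed here. All 37 were matched by symbol to RefSeq GRCm38.p6, whose coordinates differ from those of the arrays, so that none were converted. Each gene enters every count, with full values for the 8 highest, the 4 lowest with at least 10 probes, the clustered genes and 9 others fixed by name. Lists name the 2 highest and the lowest member. Values of 3 genes that this rule or the family takes are not reported here. The members and lists were chosen with earlier results of these data known. Alternatives covered background correction (limma 3.58.1, normexp with offset 50), centring, probe filters, GC, windows, names and thresholds. The code was tested on simulated data.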

Additional observations from a re-analysis of the deposited data

How the results depend on the processing

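No paired analysis was possible because the slides share no probe and there is 1 group. Of the 12 Fox genes at or above 1, 11 stayed there under each of the 13 alternatives for the gene value that kept the gene (12 for Foxf1a, which the alternative without its name form drops). The exception was Foxj2, at 0.98 with the median of probes. Some of these alternatives could not move the 12 values. The minimums of 10 and 20 probes, the older symbols and the name forms only set which genes enter. Leaving out shared names also changed nothing here, as none of the 12 genes had shared probes. Only the alternatives for background, centring, GC, dim or floor probes, the median and distance from the start could do so. The count ran from 11, without Foxf1a and Foxo3a, to 18, with probes within 1000 bp of the start, where Foxd2, Foxd4, Foxe1, Foxe3, Foxl1 and Foxq1 joined. No share over all genes was computed for probes within 1000 bp of the start, so the 18 has no background beside it. The normexp correction and the series table each gave 16, adding Foxd2, Foxd4, Foxe3 and Foxl1. Of all genes, 2.64% reached 1 with normexp and 2.56% with the series table, beside 1.99% in the main setting. Leaving out shared names gave 13, adding Foxc2. The count was 6 at a threshold of 1.5 (0.651% of all genes). The Fox median was 0.61 with normexp, 0.60 with the series table, 0.16 with the median of probes and 1.00 (0.9952) within 1000 bp of the start, where 36 genes had probes. The median over all genes was 0.01 with normexp, 0.10 without centring and -0.28 without probes dim in input. The number of Fox genes with a long run was 4 at 4000 bp (0.822% of all genes) and 7 at a running mean of 1.5 (1.18%). The causes of these shifts were not tested. No gene value at or above 1 turned negative, and letters a to g had a higher median than letters h to q under each of the 13 alternatives. Alternatives that only set which genes enter left the gene values as they were. The split of letters was made after the values were seen, so its order here is partly built in and is no separate support. Each promoter was measured on 1 array, and dim probes limit Foxp2, where both channels were at the floor for 51.1% of the probes, and Foxj2.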

Other observations

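The 3 remaining forkhead genes of the arrays carry older names and so fell outside the naming rule. Ches1, the present Foxn3, had a mean of -0.68 ± 1.54 over 69 probes, Mllt7, the present Foxo4, one of -0.11 ± 1.66 over 37, and Fkhl18, the present Foxs1, one of -0.06 ± 1.24 over 29. With them the count at or above 1 was 12 of 40 and the median 0.23.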
